A study of Mus musculus with 8 samples.

Results

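The aminoacyl-tRNA synthetases were examined in muscle stem cells (MuSCs) of aged mice cultured with or without the combination of nicotinamide and pyridoxine (NAM/PN). Members were taken by gene symbol, as the protein-coding genes whose symbol is that of a synthetase, together with the scaffold proteins Aimp1 and Aimp2, in the GENCODE M21 annotation of the mouse genome build GRCm38. This gave 39 of the 55487 genes in the count table. They were 18 cytosolic enzymes or enzyme subunits, 17 mitochondrial enzymes, 2 enzymes that serve both compartments (Gars and Kars) and 2 scaffold proteins. All 39 passed the filter on low counts and were among the 12060 genes tested.

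MuSCs were sorted by FACS from old mice, as cells without CD31, CD11b, CD45 and Sca1 and with CD34 and integrin α7. The study used wild-type male mice of the C57BL/6JRj strain, and the cells were grown for 72 hours in growth medium. The vehicle libraries received 1% DMSO and the NAM/PN libraries the combination at 1 mM, and the labels do not say whether DMSO was also present with NAM/PN. There were 8 mice, joined into 4 pools of 2 mice, and each pool gave 1 vehicle and 1 NAM/PN library. The labels of the libraries give the age of the mice only as old.

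Aminoacyl-tRNA synthetases join each amino acid to its tRNA, the step that makes amino acids available to the ribosome. Cytosolic and mitochondrial translation use separate sets of synthetases, both encoded in the nucleus, and in most cases by separate genes. In the cytosol, several synthetases are held with the scaffold proteins Aimp1, Aimp2 and Eef1e1 in the multisynthetase complex. When amino acids are scarce, uncharged tRNA activates the kinase GCN2 and thereby the transcription factor ATF4, whose known targets include amino acid transporters, enzymes of amino acid synthesis and many cytosolic synthetases.

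Libraries held between 6472484 and 10163101 counts on genes, of which members took between 0.39% and 0.448%. A level of 3 counts, taken as the floor of detection, lay between 0.295 and 0.464 CPM (the counts of a gene relative to the size of its library), which covers counting error only. The share of rRNA genes was 18.7% in vehicle replicate 3 and 5.22% in NAM/PN replicate 4, against 9.09% to 11.6% in the other libraries. Vehicle replicate 3 had the lowest vehicle value for 8 of 17 mitochondrial members (47.1%) and for 32.4% of all tested genes. The 8 markers of myogenic cells (Pax7, Myod1 and others) summed to between 2650 and 3410 CPM under vehicle and between 2330 and 3090 CPM under NAM/PN, and all 8 had counts. Pax7 and Myod1 had log2 fold changes of -0.18 and -0.19 and were not called. The 10 markers of muscle differentiation, Myog among them, summed to between 1460 and 2810 CPM under vehicle and between 190 and 634 CPM under NAM/PN, and 9 of the 10 were called lower (Myog, log2 fold change -2.22, edgeR adjusted p = 0.000232). The 8 fibro-adipogenic markers summed to between 259 and 331 CPM under vehicle and between 73.4 and 125 CPM under NAM/PN, with Pdgfra, Lum and Dpt at 0 in every library. Gsn and Col3a1 made up nearly all of this sum and were both called lower, and the other markers of the list were not tested. The 8 mural markers summed to between 283 and 598 CPM and between 97.3 and 164 CPM, with Myh11 at 0. Most of this sum was Acta2 (368 ± 125 CPM under vehicle and 70.5 ± 35.1 CPM under NAM/PN, called lower), whereas Notch3 and Cspg4 were not called and the others were not tested. Endothelial markers stayed at or below 31.1 CPM in every library, with Emcn, Flt1, Cldn5 and Tie1 at 0, and hematopoietic markers at or below 17 CPM, with Ptprc, Csf1r, Adgre1, Itgam, Cd52 and Lyz2 at 0. In bulk samples, fewer cells of a type and less RNA per cell cannot be told apart, and the part of these markers in the results on synthetases was not tested.

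The promoters of 29 members were found in the RefSeq table for GRCm38.p6, as 250 bases before to 50 bases after the start site. Among those without an entry were Cars, Hars, Hars2, Lars, Nars, Pars2, Rars, Vars and Wars. The element TGATGNAA, through which C/EBP and ATF factors such as ATF4 are known to act, was searched on both strands. It was present in 5 of 29 members (17.2%) and in 4.51% of the 27025 genes in the table. The 5 members were Aars, Iars, Tars, Yars and Gars, whereas 0 of 14 mitochondrial members held it. The E-box CACGTG, a palindrome bound by MYC and related factors, was present in Aars, Farsb, Iars, Tars and Ears2, or 17.2% of the members, and in 8.09% of all genes. A match describes letters in the window and not a bound site.

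The promoters of the cytosolic members with a match and the smallest p-values are shown 5′ to 3′ on the strand of the gene, because they hold the letters that were searched. Capitals mark the matches to either motif. The Tars window lies at chr15:11399609-11399908 on the minus strand, with the element, as its reverse complement, from 15 to 8 bases before the start and the E-box after the start. Those of Yars (chr4:129189653-129189952), Iars (chr13:49681880-49682179) and Aars (chr8:111033592-111033891) lie on the plus strand.
Tars: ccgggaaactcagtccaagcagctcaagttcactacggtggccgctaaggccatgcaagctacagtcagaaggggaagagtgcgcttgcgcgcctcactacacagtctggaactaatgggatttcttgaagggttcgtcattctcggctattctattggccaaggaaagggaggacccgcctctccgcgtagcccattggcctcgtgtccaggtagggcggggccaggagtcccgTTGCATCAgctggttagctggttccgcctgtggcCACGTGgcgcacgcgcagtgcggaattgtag
Yars: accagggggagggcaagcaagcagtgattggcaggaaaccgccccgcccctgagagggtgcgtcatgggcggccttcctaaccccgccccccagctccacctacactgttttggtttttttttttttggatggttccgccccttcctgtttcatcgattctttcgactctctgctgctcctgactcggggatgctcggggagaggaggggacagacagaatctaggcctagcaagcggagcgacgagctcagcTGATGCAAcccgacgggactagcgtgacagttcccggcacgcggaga
Iars: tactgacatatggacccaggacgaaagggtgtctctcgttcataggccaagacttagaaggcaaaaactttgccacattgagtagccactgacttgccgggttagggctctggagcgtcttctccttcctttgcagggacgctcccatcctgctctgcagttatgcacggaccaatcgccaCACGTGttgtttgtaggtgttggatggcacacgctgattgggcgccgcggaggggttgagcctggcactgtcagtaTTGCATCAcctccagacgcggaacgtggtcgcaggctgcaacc
Aars: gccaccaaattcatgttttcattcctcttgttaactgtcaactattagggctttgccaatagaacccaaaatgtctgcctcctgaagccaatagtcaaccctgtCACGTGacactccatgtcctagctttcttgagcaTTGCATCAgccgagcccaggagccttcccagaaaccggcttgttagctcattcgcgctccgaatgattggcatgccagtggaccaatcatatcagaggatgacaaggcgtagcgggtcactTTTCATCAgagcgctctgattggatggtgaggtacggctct

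NAM/PN was compared with vehicle to ask which transcripts differ between treated and untreated aged MuSCs. None of the 39 members was called at an adjusted p under 0.05 in edgeR's quasi-likelihood test, where 1.28% of all tested genes were called. The replicate block by pool also gave 0, against 1.29% of all genes. An unadjusted p under 0.05 was reached by 3 members (Lars, Mars and Rars2), or 2 with the block (Lars and Mars), against 9.28% of all tested genes. DESeq2 called 1 member, Lars, against 2.40% of all genes. Vehicle and NAM/PN values were fully separated for 3 members (Lars, Mars and Tars), against 7.21% of all tested genes. Of the 39 members, 20 had a positive and 19 a negative log2 fold change, and the median was 0.00018, beside -0.0022 over all tested genes.

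**Figure D1:**
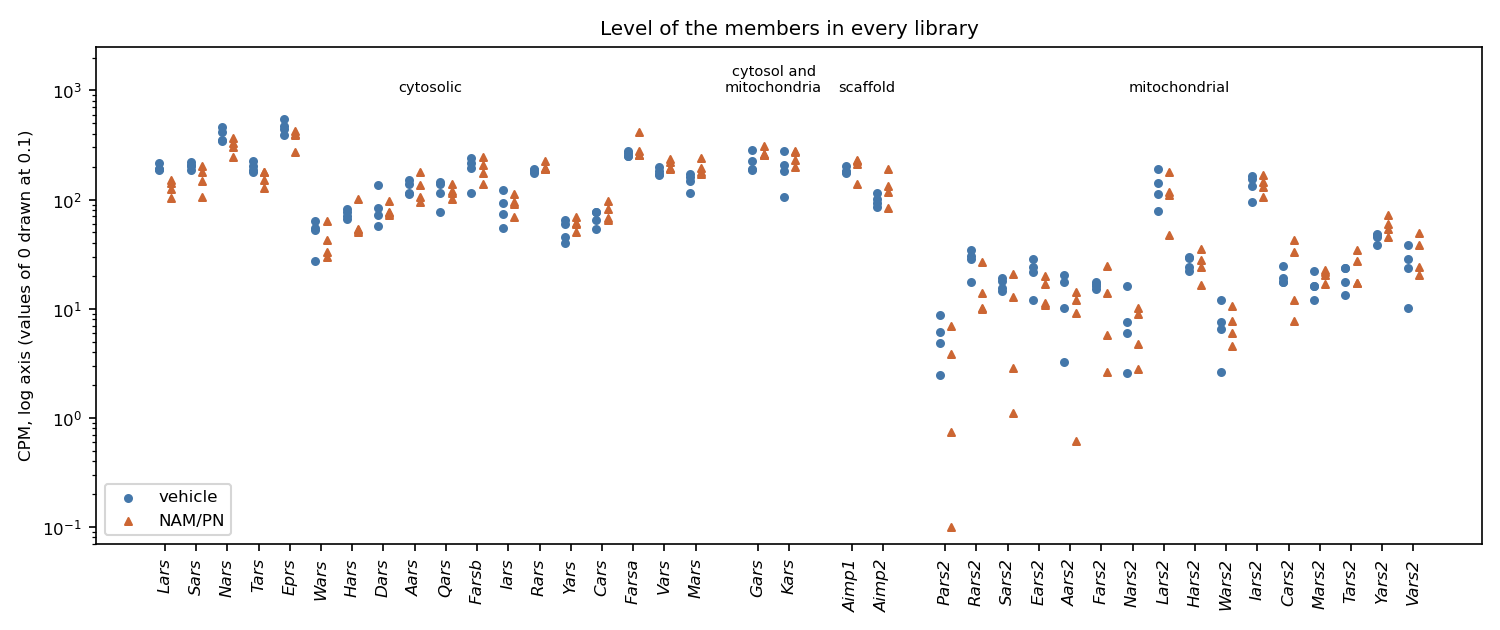
Level of 38 members in each of the 8 libraries, in CPM of the normalized library size on a log axis, with vehicle libraries as circles and NAM/PN libraries as triangles. Cytosolic members averaged between 46.1 and 416 CPM, and mitochondrial members between 4.21 and 137 CPM, where the spread between libraries is wider.

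The precision of these comparisons differed between the classes. Standard errors of the log2 fold changes lay between 0.16 and 0.31 for the 18 cytosolic members and between 0.21 and 1.3 for the 17 mitochondrial members. For all 18 cytosolic members, both dual enzymes and both scaffold proteins, the 95% interval of the log2 fold change lay within -1 and 1, that is within a 2-fold difference in either direction. This held for 4 of 17 mitochondrial members (23.5%), namely Yars2, Lars2, Iars2 and Hars2, and for 40.4% of all tested genes. For most mitochondrial synthetases, a 2-fold difference was therefore not excluded in these data.

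**Figure D2:**
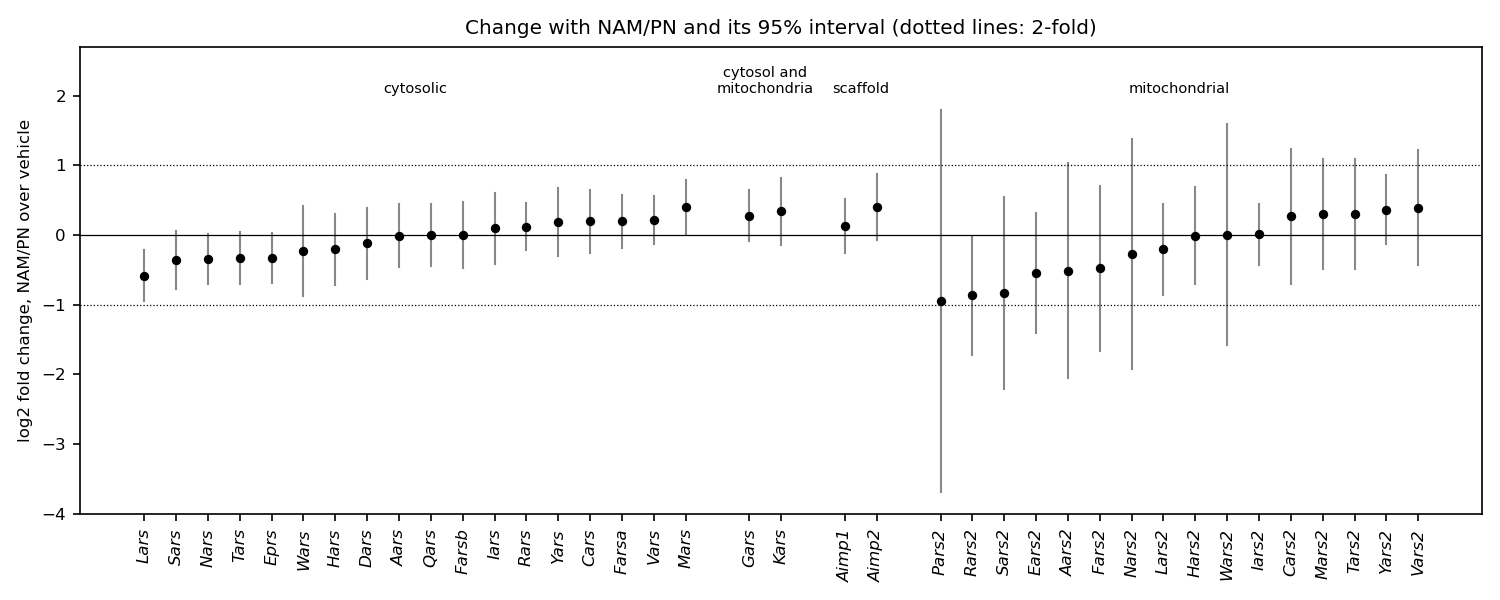
Log2 fold change of 38 members with NAM/PN (points) and its 95% interval (lines) from edgeR, by class and in ascending order, with dotted lines at a 2-fold difference. All 18 cytosolic intervals lie between the dotted lines, whereas those of mitochondrial members such as Pars2, with a standard error of 1.31, extend past them.

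The smallest p-value among the members was that of Lars (ENSMUSG00000024493, chromosome 18 from 42202298 to 42262194), the cytosolic leucyl-tRNA synthetase, which also takes part in sensing leucine for mTORC1. Lars had 214, 190, 190 and 187 CPM in the vehicle libraries of pools 1 to 4 and 125, 152, 142 and 104 CPM in the NAM/PN libraries. Every NAM/PN library was below every vehicle library, and the groups did not overlap. The mean was 195 ± 12.7 CPM under vehicle and 131 ± 21.03 CPM under NAM/PN (SD, n = 4 each). This corresponds to a log2 fold change of -0.58, with a standard error of 0.18. After Benjamini-Hochberg adjustment over all genes, p was 0.15 in edgeR and 0.0427 in DESeq2, so that the call depended on the tool. A two-sided exact permutation test over all 8 libraries gave p = 0.0286, the smallest that 4 libraries against 4 allow. Since each pool gave a library of both conditions, the exact test was also run within pools, where p was 0.125, the smallest that 4 pools allow. Both exact p-values follow from the separation of the groups and add nothing to it.

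Of the 18 cytosolic members, 9 had positive and 9 negative log2 fold changes, with a median of -0.0037 and a range from -0.58 to 0.40. Of the 6 cytosolic members with the smallest p-values, Lars, Tars, Eprs, Nars and Sars had lower means with NAM/PN and Mars a higher one, and Lars in DESeq2 was the sole one to pass the adjustment in edgeR or DESeq2. Tars (threonine; chromosome 15 from 11382301 to 11399665) had 204, 227, 180 and 187 CPM under vehicle and 152, 180, 177 and 127 CPM under NAM/PN. Its groups did not overlap, by a margin of 179.7 against 180.2 CPM, and in pool 3 the libraries differed little, and its log2 fold change was -0.33 (standard error 0.18, adjusted p = 0.638 in edgeR). Eprs (chromosome 1 from 185363044 to 185428360), a fused enzyme for glutamate and proline, had 471, 390, 547 and 446 CPM under vehicle and 421, 387, 399 and 271 CPM under NAM/PN. The groups overlapped, and NAM/PN was lower within each of the 4 pools by as little as 389.5 against 387.3 CPM in pool 2 (log2 fold change -0.33, edgeR adjusted p = 0.625). Nars (asparagine; chromosome 18 from 64499647 to 64516652) had 355, 341, 461 and 414 CPM under vehicle and 364, 329, 303 and 247 CPM under NAM/PN. The highest NAM/PN library of Nars lay above 2 of the vehicle libraries, and the log2 fold change was -0.34 (edgeR adjusted p = 0.578). Sars (chromosome 3 from 108424865 to 108445209), the seryl-tRNA synthetase that also charges the selenocysteine tRNA, had 185, 202, 206 and 221 CPM under vehicle and 179, 205, 148 and 105 CPM under NAM/PN. For Sars, pools 1 and 2 hardly differed between the conditions while pools 3 and 4 were lower with NAM/PN (log2 fold change -0.35, edgeR adjusted p = 0.663).

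NAM/PN replicate 4 had the lowest NAM/PN value of Lars, Tars, Eprs, Nars and Sars. Without this library the log2 fold changes were -0.49 for Lars, -0.24 for Tars, -0.20 for Eprs, -0.24 for Nars and -0.20 for Sars. Across all 39 members it was the lowest NAM/PN library for 12 and the highest for 16, or 30.8% and 41%, against 29.4% and 29.7% of all tested genes.

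Mars (chromosome 10 from 127296221 to 127311786), the methionyl-tRNA synthetase that also charges the initiator tRNA, was the cytosolic member with the largest positive log2 fold change. Mars had 162, 115, 172 and 147 CPM under vehicle and 172, 178, 196 and 241 CPM under NAM/PN. All NAM/PN libraries lay above all vehicle libraries, by a narrow margin between 171.9 CPM in vehicle replicate 3 and 172.3 CPM in NAM/PN replicate 1. The log2 fold change was 0.40 (standard error 0.19), with an adjusted p of 0.512 in edgeR and 0.442 in DESeq2, and the two-sided exact permutation test gave p = 0.0286 over all libraries and 0.125 within pools. The 3′ end of Mars meets that of Ddit3 on the opposite strand, and since the strand setting of the counting is not given in the sources used here, reads of the 2 genes may not be fully separated. Ddit3 had 20.8 ± 3.46 CPM under vehicle and 13.9 ± 8.36 CPM under NAM/PN (SD, n = 4 each).

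**Figure D3:**
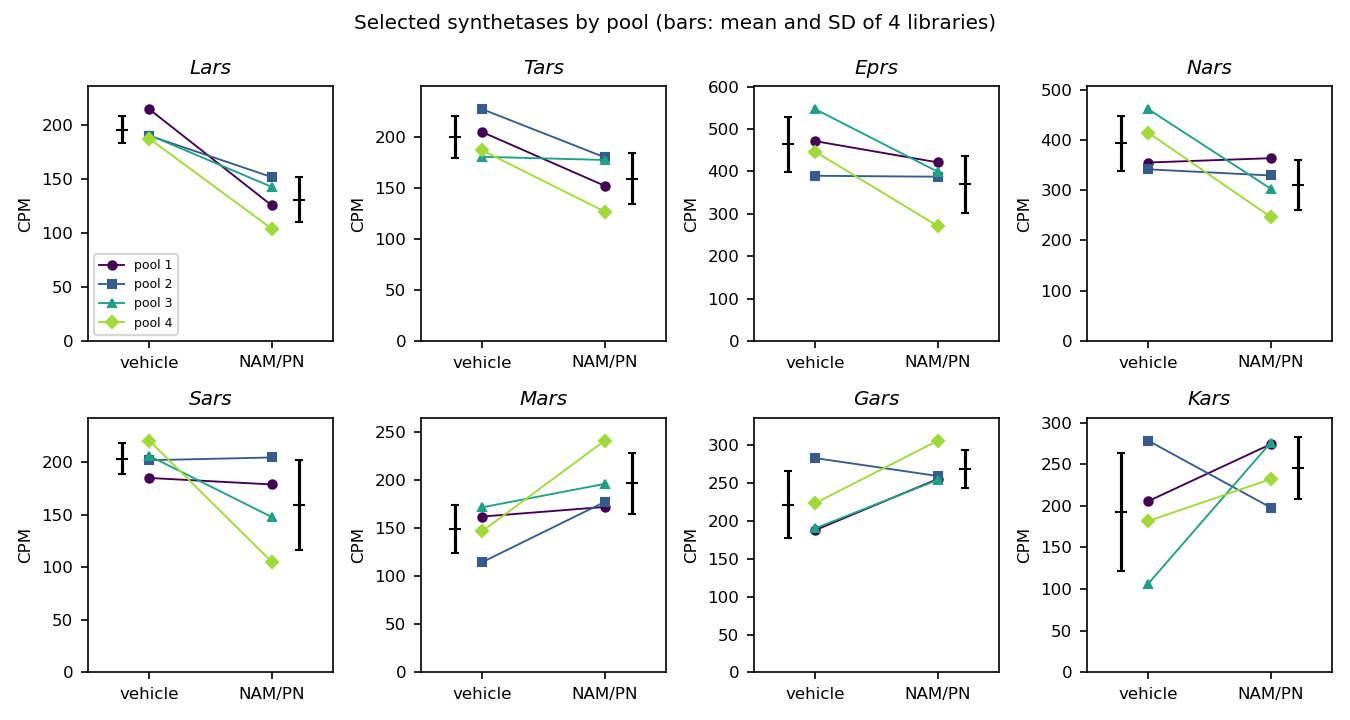
CPM of 8 synthetases in the vehicle and NAM/PN libraries, with lines joining the libraries of a pool and bars giving the mean and SD of 4 libraries. Lars and Tars are lower with NAM/PN in all 4 pools and Mars is higher in all 4, while Gars and Kars are higher in 3 of 4.

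The other 12 cytosolic members had edgeR adjusted p-values of at least 0.804. Log2 fold changes were 0.22 for Vars, 0.20 for Farsa and 0.20 for Cars (valine, the α subunit for phenylalanine, and cysteine). They were 0.19 for Yars (tyrosine), 0.12 for Rars (arginine) and 0.099 for Iars (isoleucine). Farsb, the β subunit for phenylalanine, and Qars, for glutamine, had log2 fold changes of 0.0022 and 0.00018. Aars (alanine), Dars (aspartate), Hars (histidine) and Wars (tryptophan) had log2 fold changes of -0.0075, -0.12, -0.20 and -0.23. Without NAM/PN replicate 4, the values of Farsa and Hars were 0.00031 and -0.51. Dars was at 0.18 without vehicle replicate 3, and Iars at -0.069 without vehicle replicate 2. Cars was at 0.082 without NAM/PN replicate 2 and at 0.096 without vehicle replicate 2. Relative to the mean, Rars varied least of these 12 between vehicle libraries, with a coefficient of variation of 3.57%, and Dars most, with 39.7%. The 3′ end of Aars overlaps Exosc6 on the same strand, which makes its counts less certain. The 3′ ends of Aimp2, Cars2, Iars2, Fars2, Farsb, Yars and Vars2 lie within reach of a gene on the opposite strand, with the same limit as for Mars. The members with the C/EBP-ATF element in the promoters shown above did not share a direction, with log2 fold changes of -0.33 for Tars, -0.0075 for Aars, 0.099 for Iars and 0.19 for Yars, and 0.28 for Gars.

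Gars and Kars, for glycine and lysine, each make the cytosolic and the mitochondrial enzyme from a single gene. Gars (chromosome 6 from 55038007 to 55079500) had 188, 283, 190 and 224 CPM under vehicle and 256, 260, 255 and 306 CPM under NAM/PN. NAM/PN was higher in 3 of 4 pools, and vehicle replicate 2 lay within the NAM/PN range. The log2 fold change of Gars was 0.28 (standard error 0.18, edgeR adjusted p = 0.743). Kars (chromosome 8 from 111993443 to 112011323) had 206, 278, 107 and 182 CPM under vehicle and 274, 198, 276 and 232 CPM under NAM/PN. The pools went both ways, with pool 2 lower and the other 3 higher, and the log2 fold change was 0.34 (standard error 0.23, edgeR adjusted p = 0.77). It was 0.14 without vehicle replicate 3 and 0.57 without vehicle replicate 2.

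The scaffold proteins have no catalytic activity and hold the complex together. Aimp1 (chromosome 3 from 132660499 to 132684370) had 183, 177, 203 and 174 CPM under vehicle and 224, 231, 212 and 140 CPM under NAM/PN. It was above the vehicle libraries in pools 1 to 3 and below them in NAM/PN replicate 4, with a log2 fold change of 0.13 (edgeR adjusted p = 0.943). It was 0.27 without NAM/PN replicate 4 and 0.056 without NAM/PN replicate 2. Aimp2 (chromosome 5 from 143902704 to 143909847) had 93.4, 102, 85.7 and 114 CPM under vehicle and 83.2, 117, 132 and 190 CPM under NAM/PN. Its lowest value was also with NAM/PN, and its log2 fold change of 0.40 (edgeR adjusted p = 0.664) was 0.17 without NAM/PN replicate 4. Of the 11 proteins of the complex, Eef1e1 included, 8 had positive log2 fold changes, with a median of 0.12, and 0 were called by edgeR and 1 (Lars) by DESeq2, against 1.28% and 2.40% of all tested genes. An unadjusted p under 0.05 was reached by 2 of the 11, against 9.28% of all tested genes. The exceptions with negative values were Lars, Eprs and Dars. The 7 cytosolic members in the complex had a median log2 fold change of 0.00018, and the 11 outside it -0.0075.

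Among the mitochondrial synthetases, 7 of 17 had positive and 10 had negative log2 fold changes, with a median of -0.18 and a range from -0.95 to 0.39. None was called by edgeR or DESeq2, against 1.28% and 2.40% of all tested genes, and 1 of 17, Rars2, had an unadjusted p under 0.05 in edgeR, against 9.28%. With the replicate block this was 0 of 17, and the unadjusted edgeR p of Rars2 was 0.0522. Rars2 (arginine; chromosome 4 from 34614957 to 34660167) had 17.4, 34.6, 30.5 and 28.7 CPM under vehicle and 26.8, 10.03, 14.0 and 10.2 CPM under NAM/PN. In pools 2 to 4 the NAM/PN library held less Rars2 than the vehicle library, and pool 1 went the other way. The log2 fold change was -0.87 (standard error 0.41, edgeR adjusted p = 0.527). Yars2 (tyrosine; chromosome 16 from 16302965 to 16309640) had 47.6, 45.04, 47.9 and 38.4 CPM under vehicle and 59.2, 72.6, 45.2 and 53.6 CPM under NAM/PN. It was higher in 3 of 4 pools, with a log2 fold change of 0.37 (standard error 0.24, edgeR adjusted p = 0.752). Ears2 (glutamate; chromosome 7 from 122037213 to 122067263) had 24.0, 21.5, 28.5 and 11.97 CPM under vehicle and 10.8, 11.2, 16.9 and 20.1 CPM under NAM/PN. Here pool 4 opposed the other 3, and the log2 fold change was -0.54 (standard error 0.41, edgeR adjusted p = 0.812).

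Sars2 (serine; chromosome 7 from 28741992 to 28753871) had 19.2, 18.0, 14.6 and 15.6 CPM under vehicle and 2.83, 1.12, 12.8 and 20.9 CPM under NAM/PN. The NAM/PN libraries of pools 1 and 2, with 23 and 8 counts, lay far below every vehicle library, while those of pools 3 and 4 were near the vehicle level. The log2 fold change was -0.83 (standard error 0.66, edgeR adjusted p = 0.826). It was -1.53 with the replicate block and -2.06 with voom, -1.60 without NAM/PN replicate 4, and -0.53 and -0.46 without NAM/PN replicates 1 and 2. Fars2, for phenylalanine and named after its values were seen, had a like pattern, with 15.3 to 17.5 CPM under vehicle and 5.79, 2.65, 14.0 and 24.7 CPM under NAM/PN. Pars2 (proline) had 74, 39, 20 and 56 counts with vehicle and 0, 50, 25 and 8 counts with NAM/PN. The 0 counts allow up to 0.368 CPM in that library, and the log2 fold change of Pars2, -0.95, has a standard error of 1.3. This log2 fold change was -1.87 without NAM/PN replicate 2 and -0.53 without NAM/PN replicate 1. Other members with negative values were Aars2 (-0.51), Nars2 (-0.27), Lars2 (-0.20) and Hars2 (-0.0091), in log2 fold change, the enzymes for alanine, asparagine, leucine and histidine. These values rested on single libraries, with 0.055 for Lars2 without NAM/PN replicate 4, 0.30 for Nars2 without vehicle replicate 2 and -0.13 for Aars2 without NAM/PN replicate 3. Positive log2 fold changes were 0.39 for Vars2, 0.30 for Tars2, 0.30 for Mars2 and 0.27 for Cars2, and those of Iars2 and Wars2 were 0.01 and 0.0071. Cars2 was at -0.17 without NAM/PN replicate 2, and Mars2 at 0.16 without vehicle replicate 4. Lars2 ranged from 79.3 to 190 CPM under vehicle and from 47.1 to 180 CPM under NAM/PN.

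Cytosolic and mitochondrial enzymes were compared within each library, as a description without a test because genes are not replicates. The mean log2 CPM of the 18 cytosolic members was 7.13 ± 0.054 with vehicle and 7.07 ± 0.072 with NAM/PN (SD, n = 4 each). For the 17 mitochondrial members it was 4.36 ± 0.15 and 4.03 ± 0.17. The mitochondrial mean was lower with NAM/PN in each pool, with differences of -0.65, -0.42, -0.0062 and -0.26 on the log2 scale in pools 1 to 4. The median over the same members did not share this pattern, with pool differences of -0.33, 0.061, -0.00031 and 0.23. The cytosolic mean differed by -0.032, 0.020, -0.23 and -0.00063. Their difference (cytosolic minus mitochondrial) was 2.77 ± 0.19 with vehicle and 3.04 ± 0.22 with NAM/PN, and its shift of 0.27 was smaller than the SD of the 4 pool differences, 0.36. It was positive in 3 of 4 pools.

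**Figure D4:**
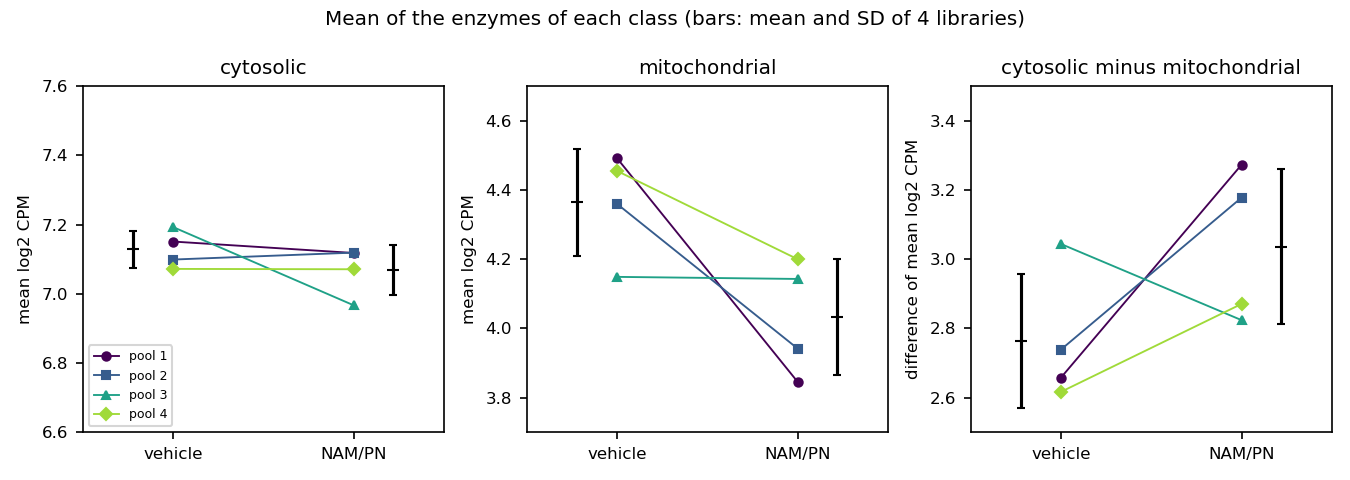
Mean log2 CPM of the cytosolic and of the mitochondrial synthetases and the difference of both means, in each library, with lines joining the libraries of a pool and bars giving the mean and SD of 4 libraries. Each axis spans 1 log2 unit. The mitochondrial mean is lower with NAM/PN in each pool, with differences between -0.65 and -0.0062, whereas the median member (not drawn) is higher in pools 2 and 4, by 0.061 and 0.23, and the difference of both means is higher in 3 of 4 pools.

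The levels were also summed on the linear scale, where genes with more counts weigh more. Summed levels of cytosolic members were 3087 ± 107 CPM under vehicle and 2892 ± 100.3 CPM under NAM/PN (SD, n = 4 each), and the ranges of 2975 to 3222 CPM and 2766 to 2976 CPM touched. The cytosolic sum was lower in 3 of 4 pools, with differences of -147, 1.76, -456 and -178 CPM. Mitochondrial members summed to 554 ± 63.2 CPM and 530 ± 53.0 CPM, with pools in both directions. All 39 members together had 4338 ± 47.2 CPM under vehicle and 4268 ± 72.7 CPM under NAM/PN, lower in each of the 4 pools.

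Synthetases fall into a class I and a class II by the fold of the catalytic domain, with Eprs holding a domain of each and left out here. Of the 18 class I members, 13 had positive log2 fold changes and 5 negative, with a median of 0.11. For class II these were 5 and 13 of 18, with a median of -0.19. No member of either class was called by edgeR, against 1.28% of all tested genes, and DESeq2 called Lars of class I, against 2.40%. An unadjusted p under 0.05 was reached by 3 of 18 in class I and 0 of 18 in class II, against 9.28% of all tested genes. With the replicate block these were 2 and 0. By pool, the median over class I was 0.020, 0.25, -0.049 and 0.22 on the log2 scale, and over class II it was -0.13, -0.17, -0.11 and 0.28. Class I was above class II in pools 1 to 3 and below it in pool 4.

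Genes that act around the synthetases were counted from lists of known genes, for charged tRNA handling, the amino acid response and amino acid transporters. These lists were chosen with earlier results of these data known. Their counts beside the shares of all tested genes are therefore a description and not a test. Of 22 genes that handle charged tRNA, among them elongation factors, tRNA export and mitochondrial amidotransferase subunits, 12 had positive log2 fold changes, and the median was 0.11. By edgeR or DESeq2 0 were called, against 1.28% and 2.40% of all tested genes. In edgeR, 2 had an unadjusted p under 0.05, against 9.28% of all tested genes. The smallest p-values were those of Ptrh2, a peptidyl-tRNA hydrolase (log2 fold change 0.89, edgeR adjusted p = 0.328), and of the elongation factor subunits Eef1d (0.40, adjusted p = 0.537) and Eef1g (0.31, adjusted p = 0.718). Without NAM/PN replicate 4, Eef1d and Eef1g had log2 fold changes of 0.17 and 0.056. Tarsl2, a further threonyl-tRNA synthetase whose symbol lies outside the rule, had 8.21 ± 3.08 CPM under vehicle and 13.3 ± 8.78 CPM under NAM/PN (SD, n = 4 each).

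Of 23 genes of the amino acid response, 22 were tested, 15 had positive log2 fold changes and the median was 0.29. None was called by edgeR, against 1.28% of all tested genes. In edgeR, 5 had an unadjusted p under 0.05, against 9.28% of all tested genes, and DESeq2 called 1, against 2.40%. Psat1 (serine synthesis) had 137, 165, 102 and 148 CPM under vehicle and 198, 238, 199 and 281 CPM under NAM/PN, without overlap between the groups. Its log2 fold change was 0.73 (standard error 0.19), with an adjusted p of 0.0736 in edgeR and 0.0133 in DESeq2. The 3 genes with the smallest p included Phgdh, of the same pathway, with a log2 fold change of 0.85 (edgeR adjusted p = 0.422), and Nupr1, a stress-induced regulator. Nupr1 had 5.92 to 15.3 CPM under vehicle and 2.71, 0, 0 and 1.31 CPM under NAM/PN (log2 fold change -3.13, edgeR adjusted p = 0.432). The Atf4 transcript had 783 ± 150.4 CPM under vehicle and 726 ± 27.6 CPM under NAM/PN (log2 fold change -0.11, edgeR adjusted p = 0.944). This log2 fold change was 0.0018 without vehicle replicate 3 and -0.20 without vehicle replicate 4. The level and activity of the ATF4 protein were not measured in these data. Asns, the asparagine synthetase, had a log2 fold change of 0.42 (edgeR adjusted p = 0.577).

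Of 17 amino acid transporters, 16 were tested and 11 had positive log2 fold changes, with a median of 0.16. Slc7a11, the cystine-glutamate exchanger, was called higher by edgeR as the sole gene of the 16, and DESeq2 called 2, Slc7a11 and Slc1a5, against 1.28% and 2.40% of all tested genes. Of the 16, 4 had an unadjusted p under 0.05 and 4 did not overlap between the groups, against 9.28% and 7.21% of all tested genes. Since the list was chosen with earlier results known, these counts give no independent support. Slc7a11 had 11.5, 10.9, 20.1 and 10.99 CPM under vehicle and 37.3, 70.4, 29.4 and 28.95 CPM under NAM/PN, and the groups did not overlap. The log2 fold change was 1.63 (standard error 0.38), and the adjusted p was 0.0327 in edgeR and 0.0644 once pools entered as a replicate block, where the call was lost. The call was also lost without vehicle replicate 1, 2 or 4 and without NAM/PN replicate 1 or 2, with edgeR adjusted p-values of 0.112, 0.143, 0.157, 0.0767 and 0.216. Slc1a5, a glutamine carrier, had 50.8 to 78.5 CPM under vehicle and 94.2 to 133 CPM under NAM/PN (log2 fold change 0.82, adjusted p = 0.0689 in edgeR and 0.022 in DESeq2). Slc7a6, a carrier of cationic and neutral amino acids, had a log2 fold change of 1.27 (edgeR adjusted p = 0.135). The remaining transporter of these 4, Slc43a2, a carrier of neutral amino acids named after its values were seen, had 22.6 to 37.7 CPM under vehicle and 13.1 to 19.05 CPM under NAM/PN (log2 fold change -1.03, edgeR adjusted p = 0.211).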

How the data were processed

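RNA of 8 libraries was sequenced by QuantSeq from the 3′ ends of mRNA, and levels were therefore not divided by length. The values deposited by the authors are raw read counts, made by alignment to GRCm38 and HTSeq 2.16.2 per the labels. The annotation release and strand setting are not given in the sources used here. Of 55487 identifiers, 55227 were found in GENCODE M21. The members and gene lists were chosen with earlier results of these data known.

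Genes were filtered with filterByExpr (minimum count 10, minimum total count 15), scaled by TMM factors and tested across all genes with edgeR's quasi-likelihood test (glmQLFTest) with Benjamini-Hochberg adjustment at 0.05, in R 4.3.3 with edgeR 4.0.16 and limma 3.58.1. The standard error is the log2 fold change divided by the square root of F. Log2 CPM used a prior count of 2. Alternatives were the replicate block, DESeq2 1.42.0, its size factors in edgeR, no filter, voom with quality weights, thinning, leaving out rRNA genes, libraries or pools, a threshold of 0.10, a prior count of 0.5, and Gars and Kars counted as cytosolic. Replicates were pools of mice. The pool number pairs the libraries by design, although their deviations from the group means were not correlated (between -0.0332 and 0.0313 in the 4 pools). Libraries of a condition differed by far more than sampling noise, so none was counted as a repeat. On simulated data, the gene test recovered 29 of 100 changes of 2-fold and 78 of 100 changes of 4-fold, and called 4 unchanged genes. Most simulated 2-fold changes were thus missed. Named in full were both scaffold proteins, Gars, Kars, and the 6 cytosolic and 4 mitochondrial members with the smallest p, and from each further list the 3 genes with the smallest p and any called gene. Atf4, Asns, Ddit3, Fars2, Slc43a2 and Tarsl2 were added after their values were seen. No other columns of sample values were present (0). Figures were drawn with Python 3.11.15 and matplotlib 3.10.9. Values of 1 member are not reported here by name, although it is included in the counts and medians.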

Additional observations from a re-analysis of the deposited data

Results flagged for a closer look

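Among 78 groups of 4 libraries (39 members in each condition), 5 held a library that stood apart from the other 3 by Dixon's test, and chance gives 3.9. In NAM/PN replicate 4, Farsa had 415 CPM against 254 to 276 CPM in the other NAM/PN libraries, Hars had 101 CPM against 50.3 to 53.55 CPM, and Gars had 306 CPM against 255 to 260 CPM. In NAM/PN replicate 3, Rars reached 224 CPM, and the other NAM/PN libraries had 189 to 194 CPM. In vehicle replicate 1, Lars reached 214 CPM, and the other vehicle libraries had 187 to 190 CPM. Without NAM/PN replicate 4, the log2 fold change of Hars was -0.51 in place of -0.20 and that of Farsa 0.00031 in place of 0.20.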

How the results depend on the processing

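The count of members called by edgeR was 0 under the replicate block and each other edgeR or voom alternative and without each library or pool (from 0 to 0), and 1 (Lars) with DESeq2. The log2 fold change of Lars lay between -0.67 and -0.49 over 19 alternatives, with adjusted p-values from 0.0427 to 0.564, and 0.198 with the replicate block. The 14 members described in full kept the sign of their log2 fold change in all 19 alternatives. Apart from Gars, Kars and the scaffold proteins, they were chosen by small p-values in these same libraries, which favors a stable sign. Their count therefore does not speak for the other members. Of those, Dars, Cars2 and Aars changed sign when a single library was left out, while Vars and Rars did not. Over all genes, 154 were called, 156 with the replicate block, 289 with DESeq2, 366 without the filter, 232 with voom and 244 at a threshold of 0.10. Leaving out libraries or pools gave between 42 (without pool 2) and 177 called genes, with 65 and 94 without pools 1 and 4, 80 and 87 without vehicle replicates 2 and 4, and 92 without NAM/PN replicate 1. The median log2 fold change of the cytosolic synthetases lay between -0.115 and 0.0766 and took both signs. That of the mitochondrial synthetases was between -0.434 (without pool 3) and -0.0556 (without vehicle replicate 4), and -0.0686 with the replicate block. The shift in the cytosolic minus the mitochondrial mean, which involves no fit and so cannot move with the block, was between 0.158 (without pool 1) and 0.438 (without pool 3). Log2 fold changes were 0.0797 and 0.663 for Kars without pools 3 and 2, 0.439 for Gars without pool 2, 0.237 for Yars2 without NAM/PN replicate 2, -1.46 for Rars2 without pool 1 and -0.93 for Ears2 without pool 4. The exact test within pools, chosen after seeing the data, gave 0.125 for Lars, Mars and Tars. It was run only for these members, whose separated groups fix this value. The block ended the sole edgeR call among the transporters, that of Slc7a11 (adjusted p = 0.0644), and changed no other call given here, while without single libraries its adjusted p was between 0.019 and 0.216. Mitochondrial members had as few as 0 counts in a library (Pars2 in NAM/PN replicate 1). Low counts and the spread between libraries both limit the precision of their fold changes, and the part of each was not tested.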
